A study of Homo sapiens with 8 samples.

Results

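The transcription factor MYC, its partners and its antagonists were followed in HL60 cells and in Adriamycin-resistant HL60/ADR cells. The 10 genes were taken by name: MYC, MAX, MXD1, MXD3, MXD4, MXI1, MNT, MGA, MLX and PVT1. All 10 were found among the 27996 genes of the expression table, and all 10 passed the filter of a mean FPKM of 0.5 or more (fragments per kilobase of transcript, scaled to the mapped fragments of the library), as 13053 genes did. The same 10 genes carried 57 of the 40550 m6A peaks of HL60 and 52 of the 38834 m6A peaks of HL60/ADR.

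HL60 is a human promyelocytic leukemia cell line that carries amplified MYC, and HL60/ADR is 1 derivative of it, selected with stepwise increased Adriamycin (ADR, doxorubicin) and kept in 0.5 μg/ml. Its cultures had been without ADR for a week when they were used. In MeRIP-seq, RNA fragments with N6-methyladenosine (m6A) are captured with an antibody (IP). A portion of the RNA that does not go through the capture (input) is sequenced as well and gives expression. Each line gave 2 IP and 2 input libraries. For the resistant line, sample titles say HL60/ADR but the source and cell line fields say HL60; the title was followed, and each comparison depends on that choice. The copy number of MYC was not measured here, and 1 resistant derivative cannot separate resistance from other differences between 2 cultures.

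MYC binds DNA as a dimer with MAX, at the E-box CACGTG, and activates genes of ribosome production, nucleotide and polyamine synthesis and cell cycle entry. MXD1, MXD3, MXD4, MXI1 and MNT compete with MYC for MAX, bind the same E-box and recruit the SIN3 corepressor with its histone deacetylases. MGA also binds MAX, and builds the repressive complex PRC1.6. MLX is a MAX-like protein that pairs with MLXIP and MLXIPL and with some of the MXD proteins. PVT1 is a long non-coding RNA gene next to MYC. In myeloid cells driven to differentiate, HL60 among them, MYC is known to fall and MXD1 to rise.

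The E-box was searched in the RefSeq promoter windows of build GRCh38.p14, from 250 bases before to 50 bases after a gene start. The motif CACGTG reads the same on both strands. Of the 8 members whose windows were used, 3 held it, namely MLX, MNT and MXD4, and 1145 of 8709 tested genes with a window did (13.1%). Of 43 activated MYC targets with a window, 20 held it (46.5%). The sites of those 3 members are shown since both MYC with MAX and the MXD proteins with MAX are known to bind these letters, and those of the MYC targets SRM and HK2 since these went opposite ways, as given further on. The capitals mark the motif. A second E-box of HK2, at chr2:74835009-74835038, is not printed.
MLX, chr17:42567038-42567067, plus strand: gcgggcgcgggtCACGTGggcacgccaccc
MNT, chr17:2401236-2401265, minus strand: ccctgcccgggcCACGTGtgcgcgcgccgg
MXD4, chr4:2262330-2262359, minus strand: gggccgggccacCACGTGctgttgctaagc
SRM, chr1:11060200-11060229, minus strand: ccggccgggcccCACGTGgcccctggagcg
HK2, chr2:74834964-74834993, plus strand: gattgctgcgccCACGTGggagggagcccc
A match describes the letters of the window and is not a measured binding site. The windows of MAX, MXD1, MXD3, MXI1 and MGA held no CACGTG, which says only that these letters are not in them.

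The 4 input libraries differed mainly by line, along a first principal component with 94.8% of the variance. Differences were tested with limma on log2(FPKM + 1), with p-values adjusted over all 13053 genes (Benjamini-Hochberg). The p-values measure the spread between 2 libraries per line, which the study calls biological duplicates in a legend and only replicates in its methods. At an adjusted p under 0.05, 30.9% of all tested genes were higher and 48.8% lower in HL60/ADR, and 8.93% were higher and 13.8% lower by over 2-fold as well, so passing the test alone sets no gene apart. The median log2 fold change of all tested genes was -0.18, and it was 0.02 when each library was divided by its median FPKM, which turned the split from 4034 higher and 6367 lower genes to 5248 higher and 5004 lower. Of 9 granulocyte precursor markers of HL60, 6 were higher and 2 lower in HL60/ADR. CTSG, a granule protease, stood at 5.58 and 7.87 FPKM in HL60 and 795 and 819 FPKM in HL60/ADR, while CEBPA, a myeloid transcription factor, fell from 79.8 and 80.4 to 21.7 and 20.3 FPKM. Of the T and NK cell markers, CD3D stood at 0.469 and 0.617 FPKM in HL60 against 54.7 and 55.6 in HL60/ADR, and TRAC at 30.7 and 30.6 against 185 and 192, while CD3G, CD2 and CD7 reached at most 0.254 FPKM in any library. The keratin gene KRT18, an epithelial marker, was listed at 2.23 and 5.38 FPKM in the libraries numbered 1 of HL60 and HL60/ADR and at 0 and 0.04 in those numbered 2, and KRT19 and EPCAM were also higher in both libraries numbered 1. Leaving out either library numbered 1 left 8 of the 10 genes past the test. CDKN2A, reported as lost in HL60, was listed at 2.28 to 4.04 FPKM. The part of these shifts in the results below was not tested, and in bulk RNA fewer cells of a type and less RNA per cell cannot be told apart.

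MYC expression was far lower in the resistant line. MYC (chr8:127735434-127742951, plus strand) stood at 109 and 110.5 FPKM in the 2 HL60 libraries and at 17.1 and 17.4 FPKM in the 2 HL60/ADR libraries. The groups lay far apart, and the libraries of each line were nearly equal. The means were 109.8 ± 1.07 and 17.2 ± 0.187 FPKM (SD, n = 2), a 6.37-fold fall, with a log2 fold change of -2.60 (SE 0.022, adjusted p = 6.48e-06, limma). By mean FPKM, MYC ranked 188 among 13053 genes in HL60 and 1944 in HL60/ADR. Its fall ranked 79 among all tested genes. Over all alternatives tried, the log2 fold change of MYC lay between -2.75 and -2.35. The antisense gene CASC11 covers the start of MYC, and the strand setting of the quantification is not given in the sources used here. CASC11 was listed at 1.06 and 1.27 FPKM in HL60 and 0.935 and 0.637 FPKM in HL60/ADR.

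MAX, the partner that MYC and its antagonists share, changed little. MAX (chr14:65006174-65102695, minus strand) stood at 9.21 and 9.06 FPKM in HL60 and 8.03 and 7.95 FPKM in HL60/ADR. The ranges did not overlap, but the log2 fold change of -0.17 (SE 0.032, adjusted p = 0.00691, limma) was close to that of the median gene. It turned to 0.07 after quantile normalization (adjusted p = 0.119) and to 0.06 with libraries divided by their median (adjusted p = 0.157). Isoforms of MAX that lack parts of the zipper were not separated by these values per gene.

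Among the 4 MXD family genes, 3 were higher and 1 was lower in HL60/ADR. MXI1 (chr10:110207605-110287365, plus strand), whose protein is a MAX-binding repressor, showed the largest rise of the 10 genes. It stood at 8.98 and 8.51 FPKM in HL60 and 42.7 and 42.8 FPKM in HL60/ADR. Both resistant libraries lay far above both HL60 libraries. The rise was 4.88-fold (log2 fold change 2.17, SE 0.034, adjusted p = 1.05e-05, limma), rank 160 among the rises of all tested genes. MXI1 was at rank 4452.5 by mean FPKM in HL60 and at rank 696 in HL60/ADR.

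MXD1 (chr2:69897688-69942945, plus strand), the founding antagonist of the family, stood at 7.23 and 7.37 FPKM in HL60 and 20.6 and 21.8 FPKM in HL60/ADR. The groups did not overlap. The rise was 2.90-fold (log2 fold change 1.42, SE 0.038, adjusted p = 2.31e-05, limma). SNRNP27 overlaps the annotated start of MXD1 on the same strand, and was listed at 13.7 to 16.4 FPKM in all 4 libraries.

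MXD3 (chr5:177301461-177312757, minus strand), the family member known for expression in dividing cells, stood at 2.28 and 1.98 FPKM in HL60 and 4.92 and 5.01 FPKM in HL60/ADR. The rise was 2.33-fold, with a log2 fold change of 0.93 on the scale with 1 added (SE 0.064, adjusted p = 2.65e-04, limma). The groups did not overlap. The MXD3 gene model overlaps RAB24 on the same strand, at 7.61 and 7.91 FPKM in HL60 and 19.2 and 20.5 FPKM in HL60/ADR. Reads of both genes may not be separable there. On the opposite strand it overlaps PRELID1, at 109 and 112 FPKM in HL60 and 73.5 and 73.4 FPKM in HL60/ADR. The strand setting of the quantification is not given.

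MXD4 (chr4:2247432-2262109, minus strand) went slightly the other way, from 4.43 and 4.68 FPKM in HL60 to 3.65 and 3.71 FPKM in HL60/ADR. Its log2 fold change was -0.25 (SE 0.046, adjusted p = 0.0071, limma). With either scaling of the libraries it was -0.04 and did not pass.

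The other MAX-binding antagonists did not follow MXI1 and MXD1. MNT (chr17:2384073-2401104, minus strand) stood at 3.19 and 3.50 FPKM in HL60 and 3.41 and 3.54 FPKM in HL60/ADR. These values overlapped, and the log2 fold change was 0.04 (SE 0.057, adjusted p = 0.517, limma). It was 0.24 and passed with either scaling (adjusted p = 0.0156 and 0.0163). MGA (chr15:41621224-41773081, plus strand) fell from 8.93 and 9.22 FPKM to 3.39 and 3.35 FPKM, a 2.69-fold fall. Its groups lay well apart, with a log2 fold change of -1.20 (SE 0.038, adjusted p = 3.21e-05, limma).

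**Figure D1:**
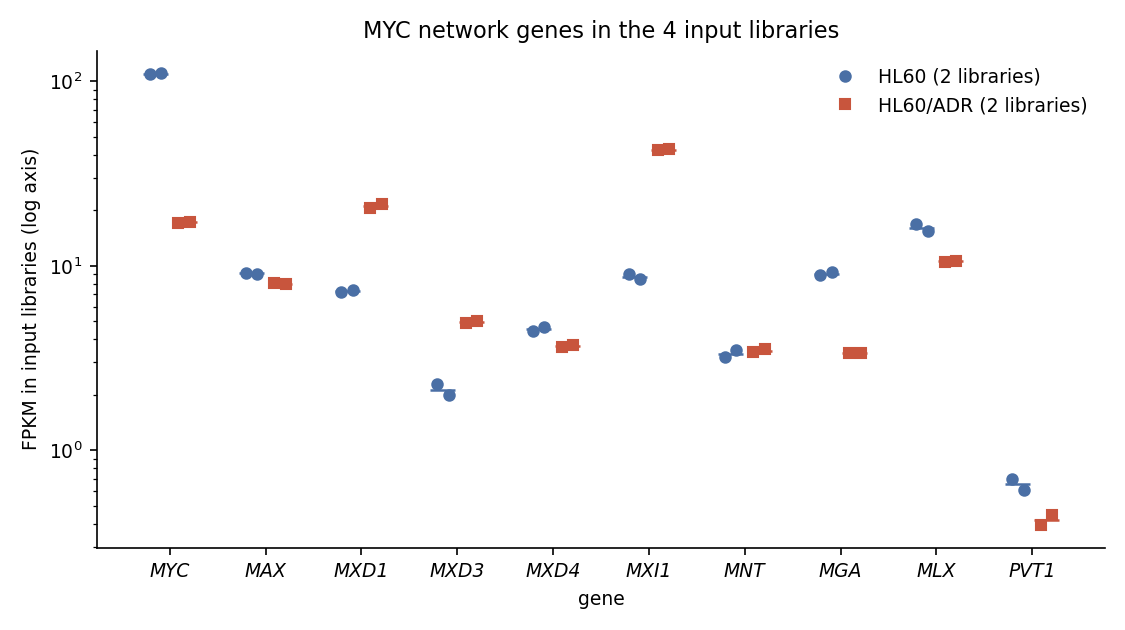
FPKM of the 10 genes in each input library, on a log axis, with circles for HL60, squares for HL60/ADR and short lines for the means of 2 libraries. MYC and MGA sit lower and MXI1, MXD1 and MXD3 higher in HL60/ADR, while the MNT values overlap.

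The order of the levels changed with these shifts. In both HL60 libraries MYC was the highest of the 10 genes and MLX the next, and MAX, MGA, MXI1 and MXD1 followed between 7.23 and 9.22 FPKM. The range of MGA overlapped those of MAX and MXI1 in HL60, and that of MXD1 lay below them. In both HL60/ADR libraries MXI1 was highest, followed by MXD1, then MYC, then MLX. MXD4, MNT and MGA lay between 3.35 and 3.71 FPKM there, and the MNT range overlapped neither that of MXD4 nor that of MGA. PVT1 was lowest in all 4 libraries.

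The balance between MYC and the genes of its antagonists was inverted in FPKM. The summed FPKM of MXD1, MXD3, MXD4 and MXI1 was 22.9 and 22.6 in HL60 and 71.9 and 73.2 in HL60/ADR. MYC FPKM was 4.76 and 4.90 times that sum in HL60, and 0.238 and 0.237 times that sum in HL60/ADR. With MNT and MGA added to the sum, MYC held 75.7% and 75.8% of the summed FPKM of MYC and the 6 antagonist genes in HL60, and 17.85% and 17.81% in HL60/ADR. MXI1 alone held 6.24% and 5.84% in HL60 and 44.5% and 43.9% in HL60/ADR. Set against MAX, MYC FPKM was 11.8 and 12.2 times that of MAX in HL60 and 2.13 and 2.19 times in HL60/ADR. These are RNA levels, and the proteins were not measured here. A ratio within a library does not change when that library is multiplied by a factor.

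**Figure D2:**
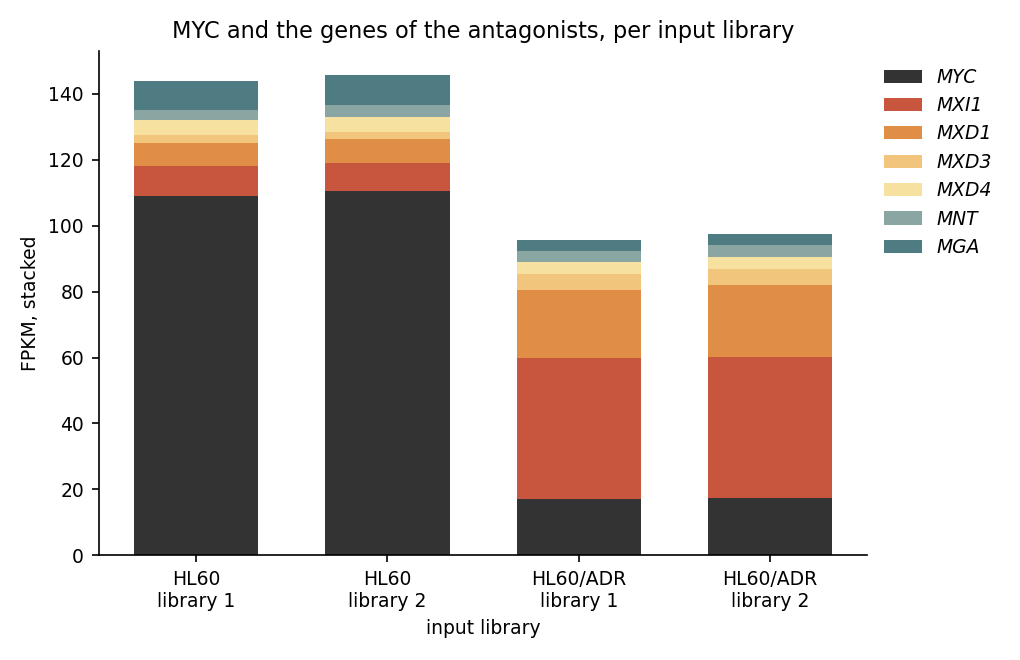
Stacked FPKM of MYC and of the 6 genes whose proteins compete with it for MAX or act with MAX as repressors, 1 bar per input library, from 0. MYC fills 75.7% and 75.8% of the bars of HL60 and 17.85% and 17.81% of those of HL60/ADR, where MXI1 is the largest share.

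MLX and PVT1 completed the set. MLX (chr17:42567068-42573239, plus strand) stood at 16.8 and 15.4 FPKM in HL60 and 10.6 and 10.6 FPKM in HL60/ADR, without overlap, a 1.52-fold fall (log2 fold change -0.56, SE 0.048, adjusted p = 5.18e-04, limma). PVT1 (chr8:127794526-128187101, plus strand) was close to the filter, at 0.699 and 0.612 FPKM in HL60 and 0.393 and 0.448 FPKM in HL60/ADR. Its log2 fold change was -0.22 (SE 0.082, adjusted p = 0.063, limma). The values did not overlap, but the test did not pass, and it passed without the trend in limma (adjusted p = 0.0163). In all, 8 of the 10 genes passed, as 10401 of all 13053 tested genes did. Of the 10, 3 were higher and 5 lower, beside 30.9% and 48.8% of all genes. On the log2(FPKM + 1) scale, 2 of the 10 genes rose and 2 fell by over 2-fold, beside 8.93% and 13.8% of all genes. Their median log2 fold change was -0.20, beside -0.18 over all genes. The 10 genes moved in both directions and their median lay near that of all genes.

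Genes of proteins around MLX and MYC showed mixed changes. Of the 6 tested genes of the extended network, 1 was higher and 4 were lower, beside 30.9% and 48.8% of all genes. With libraries divided by their median, 2 were higher and 2 lower, beside 5248 and 5004 of all 13053 genes. MYCBP2, which encodes a ubiquitin ligase first found as a MYC-binding protein, fell from 34.2 and 35.6 to 11.5 and 11.6 FPKM (log2 fold change -1.52). ARRDC4 and TXNIP, arrestin-domain genes known as targets of MLX with MLXIP, fell by 0.89 and 0.30 on the log2 scale, and MYCBP, also first found as a MYC-binding protein, fell by 0.24. With libraries divided by their median, TXNIP stood at -0.04 and MYCBP at 0.01, and neither passed. ZBTB17, the MYC partner MIZ1, rose by 0.21. MLXIP, the glucose-sensing partner of MLX, stood at 5.76 and 5.60 FPKM in HL60 and 5.54 and 5.95 FPKM in HL60/ADR (adjusted p = 0.815, limma), and its log2 fold change was 0.23 and passed with either scaling. MYCL and MLXIPL were under the filter, at most 0.257 and 0.02 FPKM.

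Genes known as activated by MYC were lower in HL60/ADR. Of 53 such genes, all tested, 46 were lower and 4 higher, and 30 were lower by over 2-fold, beside 48.8% and 13.8% of all genes in these classes. Their median log2 fold change was -1.03. With each library divided by its median FPKM, 44 were lower and 7 higher, beside 5004 and 5248 of all 13053 genes, with a median of -0.80. The largest falls were those of CDC25A, a phosphatase that activates cyclin-dependent kinases, E2F2, a factor of S phase genes, and BOP1, which matures the large ribosomal subunit. CDC25A stood at 23.6 and 22.3 FPKM in HL60 and 2.81 and 2.74 FPKM in HL60/ADR (log2 fold change -2.67, adjusted p = 1.03e-05, limma). E2F2 fell from 20.9 and 20.2 to 2.67 and 2.40 FPKM, and BOP1 from 36.6 and 35.3 to 7.21 and 7.39 FPKM. SRM, the spermidine synthase shown above and chosen after its values were seen, fell from 105 and 104 to 23.6 and 22.5 FPKM.

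The 4 activated targets that rose were HK2, LDHA, EIF4EBP1 and IMPDH2. HK2, a hexokinase of glycolysis, stood at 38.96 and 39.7 FPKM in HL60 and 105 and 109 FPKM in HL60/ADR (log2 fold change 1.42, adjusted p = 1.37e-05, limma). LDHA, lactate dehydrogenase, rose by 0.48 (-0.02 after quantile normalization), EIF4EBP1, which restrains the cap-binding factor eIF4E, by 0.34 (0.06 after quantile normalization, where it did not pass), and IMPDH2, of guanine nucleotide synthesis, by 0.23 on the log2 scale. HK2 carries the same E-box letters as SRM in the windows above. NPM1, PRMT5 and EIF4A1 did not pass, with log2 fold changes of 0.002, -0.05 and -0.07, but passed as higher with libraries divided by their median, at 0.26, 0.20 and 0.19. After quantile normalization NPM1 and EIF4A1 passed as lower, at -0.62 and -0.21, and PRMT5 stood at 0.01 and did not pass.

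Genes known as repressed by MYC went mostly the other way. Of 13 tested, 9 were higher and 4 lower, beside 30.9% and 48.8% of all genes, with a median log2 fold change of 0.82. NDRG1, a gene of differentiation and stress, rose from 29.9 and 29.3 to 163 and 165 FPKM (log2 fold change 2.43, adjusted p = 6.67e-06, limma). CCND1, cyclin D1, rose from 2.14 and 1.11 to 10.5 and 8.54 FPKM. The 4 that fell were CEBPA, the integrin ITGAL, the kinase inhibitor CDKN2C and TXNIP, by 1.88, 1.72, 0.95 and 0.30, of which TXNIP did not pass with libraries divided by their median. The kinase inhibitor genes CDKN1A and CDKN1B, chosen after their values were seen, rose by 0.40 and 0.998 (adjusted p = 0.00114 and 5.66e-05, limma).

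**Figure D3:**
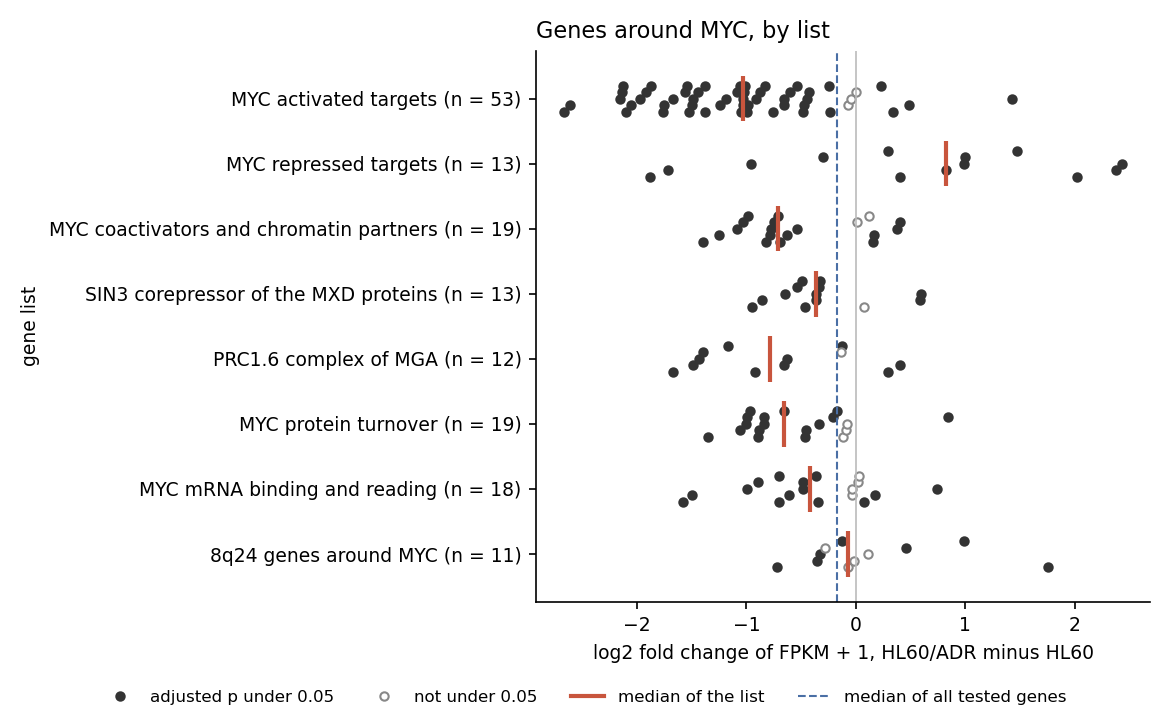
Log2 fold change of each tested gene of 8 lists, HL60/ADR minus HL60 on log2(FPKM + 1). Filled points have an adjusted p under 0.05, red bars are list medians, and the dashed line is the median of all tested genes, -0.18; the median of the activated targets is -1.03 and that of the repressed targets 0.82.

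Cofactor genes of both sides were lower more often than higher. All tested genes were too, except with libraries divided by their median. Of 19 coactivators and chromatin partners of MYC, 13 were lower and 4 higher, beside 48.8% and 30.9% of all genes, with a median of -0.71. With libraries divided by their median, 13 were lower and 6 higher, beside 5004 and 5248 of all 13053 genes, with a median of -0.47. WDR5, which helps MYC onto chromatin, fell from 30.8 and 30.2 to 11.2 and 10.8 FPKM. TOP2A, topoisomerase II alpha and a target of Adriamycin itself, fell from 91.4 and 92.3 to 37.9 and 38.0 FPKM, and the helicase RUVBL1 from 15.3 and 14.7 to 6.72 and 6.31 FPKM. KAT2B, KAT5 and SMARCB1 rose, by 0.40, 0.38 and 0.16. Of 13 genes of the SIN3 corepressor, through which the MXD proteins act, 10 were lower and 2 higher, beside 48.8% and 30.9% of all genes. None of the 13 changed by over 2-fold on the log2(FPKM + 1) scale, and their median was -0.36. With libraries divided by their median, 7 of the 13 were lower and 3 higher, beside the same 5004 and 5248 genes, with a median of -0.14. SIN3A, its scaffold, stood at 14.3 and 13.7 FPKM in HL60 and 6.64 and 6.98 in HL60/ADR, and BRMS1 and RBBP7 fell by 0.86 and 0.65. ARID4B and SAP30 rose by 0.60 and 0.58.

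Genes of the complex that MGA builds were mostly lower. Of 12 PRC1.6 genes, 9 were lower and 2 higher, beside 48.8% and 30.9% of all genes, with a median of -0.79. With libraries divided by their median, 8 were lower and 3 higher, beside 5004 and 5248 of all 13053 genes, with a median of -0.56. TFDP2, a dimerization partner of E2F proteins, fell from 13.9 and 14.1 to 3.71 and 3.73 FPKM, L3MBTL2 from 9.48 and 9.64 to 2.58 and 2.97 FPKM, and E2F6 from 6.61 and 6.99 to 1.72 and 2.06 FPKM. RNF2 and YAF2 rose by 0.41 and 0.29. The subunit that gives the complex its name, PCGF6, was not among the genes with the 3 largest falls and had a log2 fold change of -0.92 (adjusted p = 8.08e-05, limma).

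Genes that set the stability of MYC protein and mRNA were also read. Of 19 turnover genes, 15 were lower and 1 was higher, beside 48.8% and 30.9% of all genes, with a median of -0.66. With libraries divided by their median, 12 were lower and 3 higher, beside 5004 and 5248 of all 13053 genes, with a median of -0.41. The largest falls were those of PLK1, a mitotic kinase, and the deubiquitinases USP36 and USP37, with log2 fold changes of -1.36, -1.06 and -1.005, and the ubiquitin ligase gene FBXL14 rose by 0.85. FBXW7, the best known MYC ubiquitin ligase, stood at 3.33 and 3.01 FPKM in HL60 and 3.14 and 2.76 FPKM in HL60/ADR (adjusted p = 0.374, limma). Of 18 genes whose proteins bind or read MYC mRNA, 11 were lower and 3 higher, beside 48.8% and 30.9% of all genes, with a median of -0.42. IGF2BP1, an m6A reader known to protect MYC mRNA, fell from 29.5 and 30.5 to 14.4 and 14.7 FPKM. The helicase DHX9 and SYNCRIP fell, with log2 fold changes of -1.58 and -1.495, and AUH, CNBP and HNRNPC rose by 0.74, 0.18 and 0.07. After quantile normalization HNRNPC turned to -0.13 and CNBP stood at 0.05. With libraries divided by their median, 11 of the 18 were lower and 7 higher, beside 5004 and 5248 of all 13053 genes, with a median of -0.18.

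The tested genes of a chosen list of 8q24 genes around MYC moved in both directions. Of 11 tested, 3 were higher and 4 lower, beside 30.9% and 48.8% of all genes, with a median of -0.07. With either scaling, 6 were higher and 2 lower, and the medians were 0.18 and 0.17. Of all 13053 genes, 4913 were higher and 5326 lower after quantile normalization, and 5248 and 5004 with libraries divided by their median. SQLE, of cholesterol synthesis, rose from 14.5 and 14.9 to 50.5 and 53.1 FPKM, NSMCE2 rose by 0.99 and TMEM65 by 0.46. TRIB1, a pseudokinase gene of myeloid leukemia, fell from 52.6 and 53.0 to 32.5 and 30.8 FPKM, and CCDC26, RNF139 and WASHC5 fell by 0.36, 0.33 and 0.13. With either scaling WASHC5 turned upward to 0.10 and RNF139 stood at -0.10, and neither passed. TATDN1, ASAP1, CYRIB and CASC11 did not pass, with log2 fold changes of 0.11, -0.02, -0.07 and -0.28. The log2 fold change of MYC, -2.60, was lower than that of any of these 11 genes and of PVT1. With 1 added to each FPKM, genes low in HL60, such as PVT1, CASC11, CCDC26 and TMEM65, could not have fallen that far. For such genes the comparison decides nothing. CASC8, a long non-coding RNA gene upstream of MYC that lay under the filter and was not tested, was listed at 0.393 and 0.357 FPKM in HL60 and at 0.056 and 0.055 FPKM in HL60/ADR.

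The m6A peaks of the 10 genes were then compared. A peak is a region of exons where IP reads exceed input reads, and its fold enrichment is the ratio of the IP to the input. The deposited lists hold 1 set of peaks per line from both replicates together, so no spread between replicates is known and no difference between the lists has a p-value. All 10 genes had peaks in both lists. In all, 15640 genes had a peak in the HL60 list and 15285 in the HL60/ADR list. Of the peaks of the 10 genes in HL60, 22 lay in 3′ UTRs, 14 in 5′ UTRs and 21 in other exons. Of those in HL60/ADR, 19, 12 and 21 did. The regions of all peaks were not counted here, so this split is not shown to be particular to the 10 genes. The median fold enrichment of the peaks of the 10 genes was 3.09 in HL60, beside 3.86 over all peaks. In HL60/ADR it was 4.8, beside 5.32 over all peaks.

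By overlap of 1 peak with 1 peak, 21 pairs of the 10 genes could be formed. None of the 21 lay in MYC or MAX, whose overlapping calls did not match 1 to 1. Of the 21 pairs, 15 had a higher fold enrichment in HL60/ADR (71.4%), beside 68.0% of all 15434 pairs. A ratio over 2-fold higher was seen in 5 of the 21 pairs, beside 18.7% of all pairs, and over 2-fold lower in 1, beside 4.77%. These shares lie near those of all peaks. The median log2 ratio was 0.43 for the 21 pairs and 0.34 for all pairs. In genes whose expression was lower by over 2-fold, the median log2 ratio of 1844 pairs was 0.54, and in genes higher by over 2-fold, that of 764 pairs was 0.17. The fold enrichment has input reads in its denominator. Its relation with expression was not tested.

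Both lists held peaks annotated to MYC in the first part of the gene, with higher fold enrichment in HL60/ADR. In HL60, the peak at its start (chr8:127735434-127735704, 5′ UTR) had a fold enrichment of 2.48, and in HL60/ADR the peak there (chr8:127735434-127735973) had 6.65. A second call over the same bases, from another transcript model, gave 2.06 in HL60 and 5.14 in HL60/ADR, so these are not independent. A further peak reached from 127736153 to 127737659 with 1.70 in HL60, and from 127736063 to 127738250 with 2.52 in HL60/ADR. A peak in the 3′ UTR (chr8:127741603-127741723, fold enrichment 1.53) was listed in HL60 alone, with a log10 false discovery rate of -1.36. The strongest peak annotated to MYC, 4.60 in HL60 and 8.11 in HL60/ADR, began upstream of the gene, at 127730481 and 127730571, and ended at 127738987, the last base of CASC11. Of its exonic bases, 585 of 779 in HL60 and 495 of 689 in HL60/ADR lay outside MYC. The other 5′ UTR peaks annotated to MYC, given above, also lie inside the extent of CASC11 on the opposite strand. Whether a 5′ UTR peak here belongs to MYC or to CASC11 cannot be told from the lists.

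**Figure D4:**
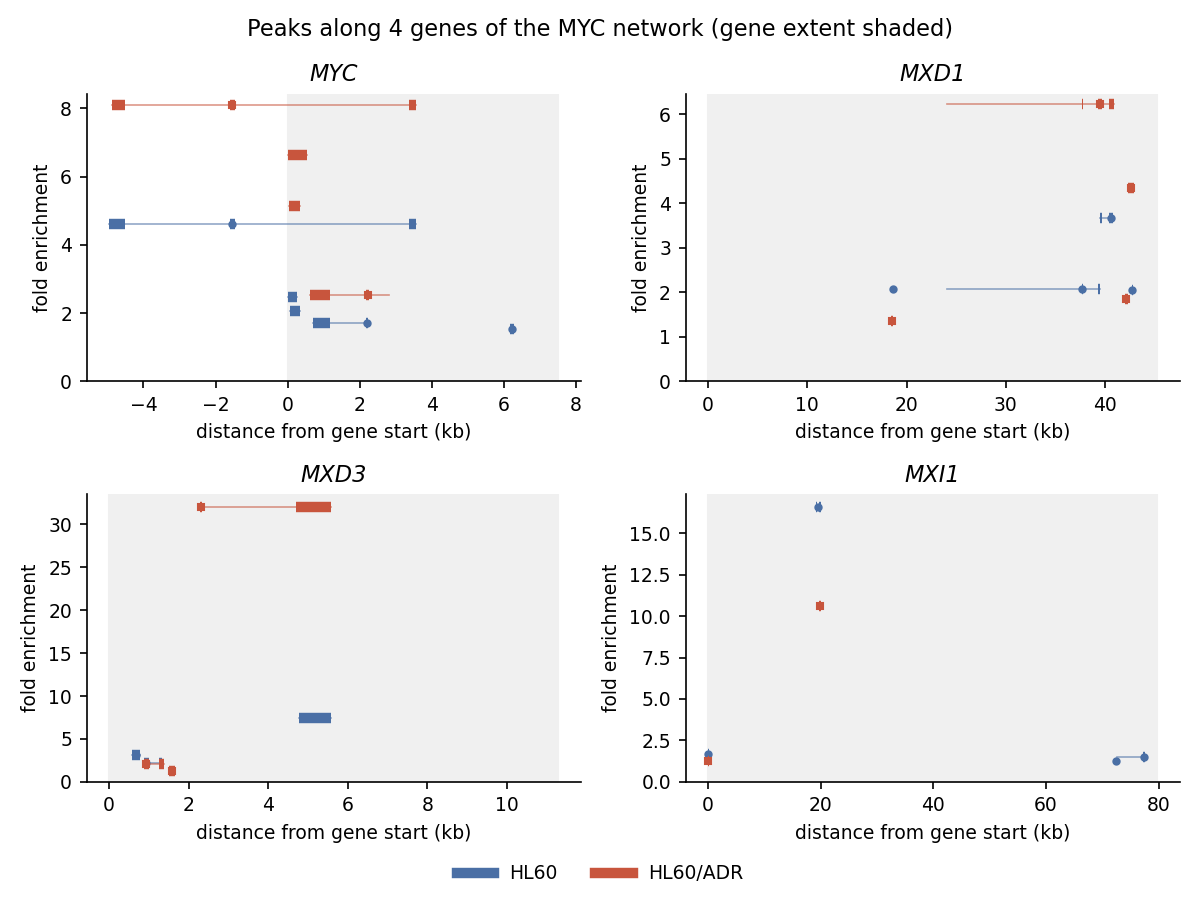
Peaks along MYC, MXD1, MXD3 and MXI1, by distance from the gene start in kb along the gene and by fold enrichment, with thick bars for exonic blocks, a marker on the middle block, thin lines for introns within a peak, and the gene shaded. In MXD3 the 3′ UTR peak stands at 7.44 in HL60 and 32.0 in HL60/ADR, and in MYC the widest peak starts outside the gene.

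In the HL60/ADR list, MXD3 carried the strongest peak of the 10 genes. Its 3′ UTR peak had a fold enrichment of 7.44 in HL60 (chr5:177307180-177307989) and 32.0 in HL60/ADR (chr5:177307180-177310472), 4.30 times as high, and only 1.08% of all HL60/ADR peaks had a higher fold enrichment. It shared 810 exonic bases between the lists. Input FPKM of the whole MXD3 gene rose 2.33-fold, and the input at the peak itself was not measured here. The 5′ UTR peak of MXD3 differed little, with 2.14 in HL60 and 2.02 in HL60/ADR.

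The other MXD genes varied. In MXD1, a peak annotated to the 3′ UTR had 3.67 in HL60 (chr2:69937211-69938512) and 6.22 in HL60/ADR (chr2:69921743-69938602). A further 3′ UTR peak had 2.06 over 91 bases in HL60 and 4.34 over 570 bases in HL60/ADR. The peak of MXD1 upstream of them went from 2.07 to 1.35. MXD4 had a pair of 1.51 and 2.47 over its 3′ UTR. In MXI1, whose expression rose most, the pairs were lower in HL60/ADR, with 1.66 and 1.27 at the gene start and 16.6 and 10.6 at chr10:110226840-110227752. The values of 16.6 and 10.6 both lie on whole steps of the lists, described with PVT1 further on. Its 3′ UTR peak (chr10:110280141-110285176, 1.52, log10 false discovery rate -11.2) was listed in HL60 alone.

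MNT had 4 peaks in HL60 and 6 in HL60/ADR. Its 3 pairs of 1 peak with 1 peak had 2.27, 3.91 and 4.97 in HL60 and 2.45, 4.28 and 5.25 in HL60/ADR, ratios of 1.06 to 1.09. Its 3′ UTR peak with the lowest false discovery rate, matched by shared exonic bases, had 4.22 in HL60 and 5.50 in HL60/ADR, and a 5′ UTR peak of 13.3 was listed in HL60/ADR alone. MGA, whose expression fell, had 4 pairs with ratios of 1.22, 1.98, 1.35 and 1.97. The strongest of these, over the 3′ UTR (chr15:41766039-41767807 in HL60), had 5.99 in HL60 and 11.8 in HL60/ADR. MGA had 11 peaks in HL60 and 7 in HL60/ADR, and the 4 that were listed in HL60 alone were weak, from 1.14 to 2.58. A peak annotated to MGA with 9.93 in HL60 ended at the last base of the antisense model AC016134.

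MAX and MLX carried peaks where other genes overlap them. In MAX, 3 calls over the same 3′ bases had 4.54 to 4.71 in HL60, while those in HL60/ADR had 6.25 to 6.54, and each overlapped the end of FNTB on the opposite strand. A 3′ UTR peak of MAX away from FNTB had 2.02 in HL60 (chr14:65076149-65076808) and 3.45 in HL60/ADR (chr14:65075670-65077407). MLX had weak peaks, at most 2.23 in HL60 and 2.09 in HL60/ADR, most of them inside PSMC3IP on the opposite strand. The 1 pair of MLX outside PSMC3IP had 1.96 in HL60 and 1.52 in HL60/ADR.

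PVT1, the gene with the lowest FPKM, had the most peaks of the 10 genes, 14 in HL60 and 12 in HL60/ADR. Counts of 10 or more were reached by 1.38% of the genes with a peak in the HL60 list. For the HL60/ADR list this share was 1.2%. Fold enrichments often came as whole multiples of a single value, 1.10 for the HL60 list and 0.887 for the HL60/ADR list, called a step here, and 5 of the PVT1 peaks in HL60 and 7 in HL60/ADR lay on 6 to 40 such steps. Among all 14 and 12 PVT1 peaks, on steps or not, 6 and 3 were given a false discovery rate above 0.05. Over all genes, that limit was exceeded by 19.9% of the HL60 peaks and 15.9% of the HL60/ADR peaks. Its peak at chr8:128100985-128101255, with the lowest false discovery rate among the PVT1 peaks paired 1 to 1, had 3.34 in HL60 (log10 false discovery rate -21.2) and 5.01 in HL60/ADR (-41.5). The pairs with the largest ratios, 5.30 (with 1 shared base), 2.57 and 2.54, had HL60/ADR values on whole steps, as did the peaks of 13.3 listed for MXD4 and MNT in HL60/ADR alone. Of all peaks, 21.0% in HL60 and 29.0% in HL60/ADR lay on such steps.

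**Figure D5:**
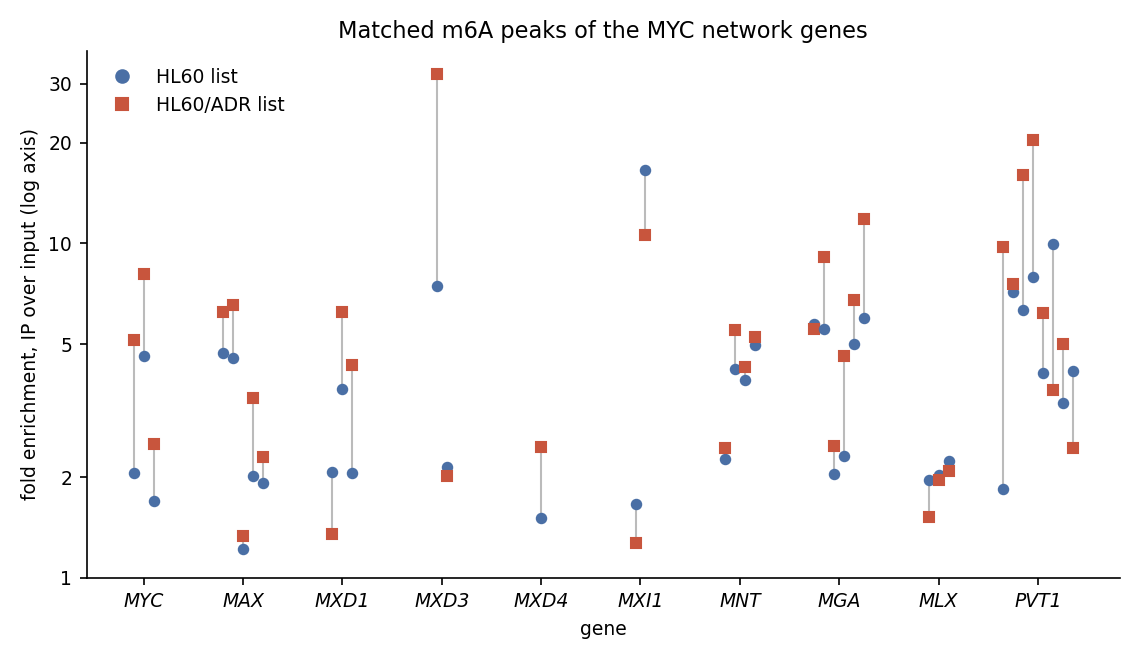
Fold enrichment of matched peaks of the 10 genes, on a log axis, with a circle for HL60 and a square for HL60/ADR joined by a line. Matching is by the largest share of exonic bases within a gene, which gives 37 pairs, 27 of them higher in HL60/ADR. The share over all genes was not computed for this matching. Overlapping calls of MYC, MAX and MLX appear as separate pairs.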

How the data were processed

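MeRIP-seq of 2 lines with 2 IP and 2 input libraries each was used. Per the study's methods, the authors cleaned reads with fastp, mapped them with HISAT2 to the Ensembl human genome and called peaks with exomePeak, which ChIPseeker annotated. The build was read as GRCh38, since 99.9% of 20604 shared gene symbols overlap their RefSeq GRCh38.p14 position. For each peak, the 1 deposited list per line holds a ratio of IP over input (the fold enrichment) and exomePeak's p-value. The false discovery rate and this p-value also stand there as log10, each a deposited score. Deposited FPKM for each gene and input library came from StringTie, run by the authors. Counts were not used here, so the depth behind an FPKM is unknown. FPKM are shares of a library and do not show total RNA per cell.

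Expression was tested with limma 3.58.1 in R 4.3.3 on log2(FPKM + 1) (trend, two-sided, line as the only term), with genes of mean FPKM 0.5 or more and Benjamini-Hochberg adjustment over all of them. The method was tested on simulated data. Fold changes on this scale understate those of low genes. Peaks were matched with bedtools 2.31.1 by at least 1 shared base without regard to strand, and by shared exonic bases, the latter chosen after seeing the data. Peaks on whole steps were counted where a fold enrichment equals 6 to 40 steps at its printed digits. Python 3.11.15, pandas 2.3.3, numpy 2.4.6 and matplotlib 3.10.9 were used, and promoter windows came from RefSeq. Members, gene lists and rules were chosen with earlier results of these data known. In each list, the 3 largest rises and falls among genes passing were named, and every tested gene of the 8q24 list. CDKN2A, fixed as a gene lost in HL60, was higher. Some genes this rule would name are not reported here. MYCN was not analysed here. The marker lists of granulocyte precursors, T and NK, B, erythroid and megakaryocyte, monocyte, and epithelial and fibroblast cells had 6, 3, 0, 0, 0 and 0 members higher and 2, 0, 2, 1, 1 and 0 lower. The replicate numbers are not shown to pair the samples. Alternatives were the pseudocount, the filter, the scaling, the trend, the replicate block, leaving out each library, and stricter peaks.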

Additional observations from a re-analysis of the deposited data

How the results depend on the processing

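The log2 fold changes of MYC, MXD1, MXD3, MXI1, MGA and MLX kept their direction and stayed at an adjusted p under 0.05 (limma) in all 12 alternatives. MAX turned to 0.07 after quantile normalization and to 0.06 with libraries divided by their median FPKM, where it did not pass, MXD4 lost its call at -0.04 in both, and MNT gained one at 0.24 in both. Without 1 library, MNT ranged from -0.01 to 0.09, and it was -0.01 without HL60 replicate 1. The cause was not tested; the median gene moved from -0.18 to -0.03 and 0.02 under the scalings. PVT1 passed without the trend (-0.22) and fell under the filter at a mean FPKM of 1 or more and without HL60 replicate 1. The number of the 10 genes that passed was 7 to 9, and that of activated targets 49 to 51. With the replicate block, 8 of the 10 genes, 50 activated targets and 10273 genes in all passed, beside 10401 without it, and no call of the 10 genes changed. Deviations of same-numbered libraries correlated at 0.043, so the numbers are not shown to pair the samples. Leaving out a library leaves 1 in its line, assumed to vary like the other line, and gave 8 of the 10 genes, 50 to 51 targets (46 to 47 of them lower) and 9350 to 9674 genes in all.

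Peaks depended more on the limits. At a fold enrichment of 4 or more and a false discovery rate of at most 1e-05, 14 peaks in HL60 and 20 in HL60/ADR stayed. They came from 6 and 8 of the 10 genes and gave 7 pairs, 7 of them higher in HL60/ADR. The share of all peaks that met these limits, and the share of all pairs that were higher under them, were not computed. Matching by shared exonic bases gave 37 pairs, 27 of them higher, and the share over all genes was not computed for it either. A fold enrichment of 2 or more, an overlap of 50% of both peaks, or leaving out peaks on whole steps (chosen after seeing the data) kept each count within 1.5 times. Peak lists are pooled, 2 libraries per line limit every p-value, and 1 derivative was compared with its parent.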

Other observations

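Of further transcripts around MYC, AC016074, AC087667 and KNOP1P5 had a mean FPKM of 0.5 or more but were not in the 8q24 list. Others were under the filter. LRATD2, PCAT1, CASC19 and LINC00824 stayed at or under 0.052 FPKM in all 4 libraries. MIR1204 to MIR1208 lie within PVT1, and MIR1208 was listed at 0.551 FPKM in the second HL60/ADR library and at 0 in the other 3.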
